A study of Mus musculus with 4 samples.

Results

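The 10 splicing regulators Ptbp1, Ptbp2, Ptbp3, Qk, Mbnl1, Mbnl2, Celf2, Rbfox1, Rbfox2 and Nova1 were followed in single nestin-GFP-positive cells of the mouse dentate gyrus. They were chosen by name as RNA-binding splicing regulators and make up 10 of the 31557 gene symbols in the deposited count table. Cells came from 8 male mice of the nestin-GFP genotype, of which 4 had received an antagomir against miR-132 and 4 a scrambled oligonucleotide. The antagomir is a cholesterol-modified locked nucleic acid, and 2 µl at 0.33 nmol/ml were infused into the cerebral ventricle at 2 months of age, with analysis at 3 months. The scrambled locked nucleic acid was given in the same fluid, and the labels do not state how much. All 8 mice carried the nestin-GFP reporter, in which nestin sequences drive GFP, so only cells inside that sorting gate were seen. The mature microRNA was not measured, because the oligo-dT primers of Smart-seq2 copy polyadenylated RNA.

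Splicing regulators bind short RNA motifs in or near an exon and raise or lower the chance that the exon is kept. PTB proteins mostly repress exons, and neurons replace Ptbp1 by Ptbp2 as they differentiate. Qk is needed for myelination, muscleblind (Mbnl) and CELF proteins often act on the same exons in opposite directions, and Rbfox and Nova proteins are best known from neurons. Ptbp2 has been described as a miR-132 target in neuronal cells.

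The antagomir is directed against miR-132, and the seed of miR-132-3p is the part compared here with these genes. It is shown with the places in members' 3' UTRs that pair with it, because pairing with the seed is the main way a microRNA recognises a transcript. The mature miRNA, from RefSeq (GRCm38.p6, chr11:75173723-75173744, plus strand), has its seed, bases 2 to 8, in capitals.
miR-132-3p: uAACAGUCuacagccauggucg
The longest annotated 3' UTR of each of the 10 genes (GENCODE M21, GRCm38) was searched on the transcript strand for the 7 bases GACTGTT and for the 8 bases GACTGTTA, which contain them. Of the 10 genes, 4 held 1 match each and the other 6 held none. Each match is printed 5′ to 3′ with its neighbouring bases, and capitals mark the bases searched for. The last A of the 8-base form lies opposite base 1 of the miRNA, outside the seed.
Ptbp2: catcacctattGACTGTTcagaaaagtgg
Ptbp3: gttagatataaGACTGTTtgcagtccttt
Celf2: tatcaggaatcGACTGTTctactaattca
Nova1: ttttaacattgGACTGTTAtttcatttaga
The match of Ptbp2 lies at chr3:119720268-119720274 on the minus strand, 54 bases after the stop codon in a UTR of 1586 bases. The match of Ptbp3 lies at chr4:59473296-59473302, that of Celf2 at chr2:6540103-6540109 and that of Nova1 at chr12:46698148-46698155, all on the minus strand. Only Nova1 among the 10 held the 8-base form. Of 20989 mouse 3' UTRs searched alike, 10.72% held the 7-base form and 2.35% the 8-base form. Among UTRs of like length the 7-base share was 12.35% for Ptbp2, 31.86% for Ptbp3, 39.88% for Celf2 and 33.96% for Nova1. The 8-base share among UTRs of like length to that of Nova1, 5452 bases, was 8.61%. A match is a description of letters, not a shown binding site.

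Each mouse gave 1 whole dentate gyrus and 96 wells, and 716 wells in which 500 to 6000 genes were detected entered the analysis, 353 of antagomir mice (2, 4, 6 and 8 in the well table) and 363 of scrambled mice (1, 3, 5 and 7). Kept wells held a median of 650777 reads and 2778.5 detected genes, and the sums per mouse ran from 43996495 to 69191485 reads. Clusters built without the splicing genes were named from marker genes. They gave 301 oligodendrocyte-like cells, 168 cells with the shared profile of radial glia-like stem cells (RGL) and astrocytes, 87 endothelial-like, 82 mural-like, 25 neuroblast-like, 12 fibroblast-like and 5 oligodendrocyte precursor-like cells, and 36 cells left unnamed. The markers of each class summed highest in that class in every mouse. Oligodendrocyte markers summed to 88970 to 104100 CPM, reads scaled to a fixed library total, in oligodendrocyte-like cells and to at most 786 CPM in the other 4 classes compared. RGL or astrocyte markers summed to 31200 to 40860 CPM in their own class, and to 2919 to 4466 CPM in mural-like cells. Mature neuron markers summed to 1085 to 2218 CPM in neuroblast-like and to 433.9 to 1334 CPM in RGL or astrocyte-like cells. The part of these second signals in the results below was not tested. Wells with 3 or more markers of 2 classes numbered 74, and no doublet caller was run.

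Across classes the 10 genes differed in pattern. Qk and Mbnl2 were the leading members in oligodendrocyte-like cells, Celf2 and Ptbp2 in neuroblast-like cells, and Ptbp1 in both mural-like and endothelial-like cells. Per kilobase of exon, the only scale on which genes are compared, Qk averaged 42.2 ± 16.4 and Mbnl2 39.1 ± 4.97 CPM per kb in oligodendrocyte-like cells (SD, n = 8 mice). In neuroblast-like cells Ptbp2 averaged 22.9 ± 6.66 and Celf2 15.6 ± 6.49 CPM per kb (SD, n = 5 mice). Ptbp1 averaged 34.6 ± 22.3 CPM per kb in mural-like and 20.5 ± 22.2 CPM per kb in endothelial-like cells (SD, n = 8 mice). It passed no edgeR test between classes. Tests between classes used reads summed per mouse and class, with 8 sums for each of 4 classes and 5 sums of 3 to 5 neuroblast-like cells. All 10 pairs of the 5 classes were tested in 1 edgeR quasi-likelihood fit with the mouse as a block, and p-values were adjusted over the 15140 genes of each pair by the Benjamini-Hochberg method. A gene was called at an adjusted p under 0.05.

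**Figure D1:**
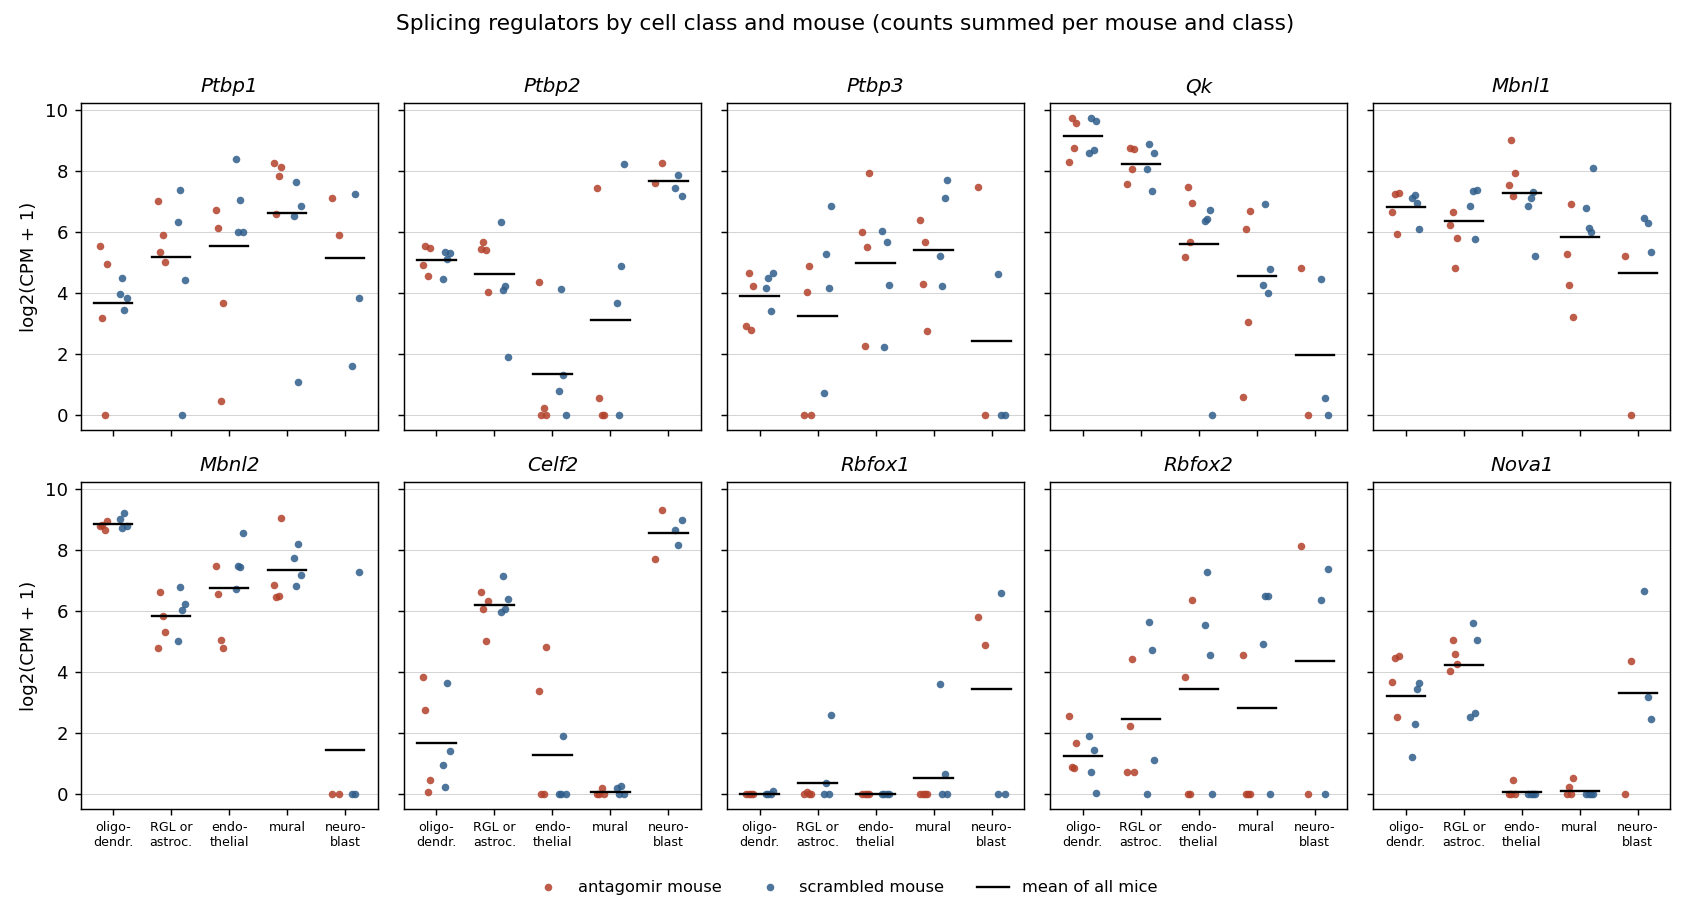
Log2(CPM + 1) of each of the 10 splicing regulators (y axis) in reads summed per mouse and cell class (x axis), with antagomir mice left of scrambled mice within a class. Points are mice (8 per class, 5 for neuroblast-like cells) and bars are their mean; Qk and Mbnl2 lie highest in oligodendrocyte-like cells, and Celf2 and Ptbp2 in neuroblast-like cells.

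Over the 10 pairs, 29 of 100 tests of the 10 genes were called, against 25092 of 151400 tests of all genes (16.6%). These tests share sums and are not independent. Oligodendrocyte-like minus RGL or astrocyte-like cells gave 2 of 10 members called, with 15.5% of all genes called. The other 3 pairs against RGL or astrocyte-like cells gave 3 members for endothelial-like (23.4% of all genes), 3 for mural-like (18.6%) and 2 for neuroblast-like cells (13.5%). Against oligodendrocyte-like cells as the first class, 4 members were called for the endothelial-like (23.8%), 3 for the mural-like (20.8%) and 4 for the neuroblast-like pair (13.9%). Neuroblast-like cells gave 5 members against endothelial-like (14.3%) and 3 against mural-like cells (12.8%). Mural-like minus endothelial-like cells gave 0 members called by edgeR, with 2 at an unadjusted p under 0.05 and 9.08% of all genes called by edgeR. DESeq2 called 3 members there, and the edgeR share is no background for that count. The median log2 difference of the 10 members was -0.54 for oligodendrocyte-like minus RGL or astrocyte-like cells (all genes 0.06). It was -0.91 for neuroblast-like minus RGL or astrocyte-like cells, where the median of all genes was -1.77. Against RGL or astrocyte-like cells it was -1.075 for endothelial-like (all genes -1.55) and -0.60 for mural-like cells (all genes -1.19). Oligodendrocyte-like cells had 1.18 over endothelial-like (all genes 1.52), 1.41 over mural-like (1.22) and -0.33 over neuroblast-like cells (1.78). Neuroblast-like cells had -0.275 over endothelial-like (all genes -0.22) and 0.23 over mural-like cells (-0.42). Mural-like minus endothelial-like cells had -0.05 (0.09).

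**Figure D2:**
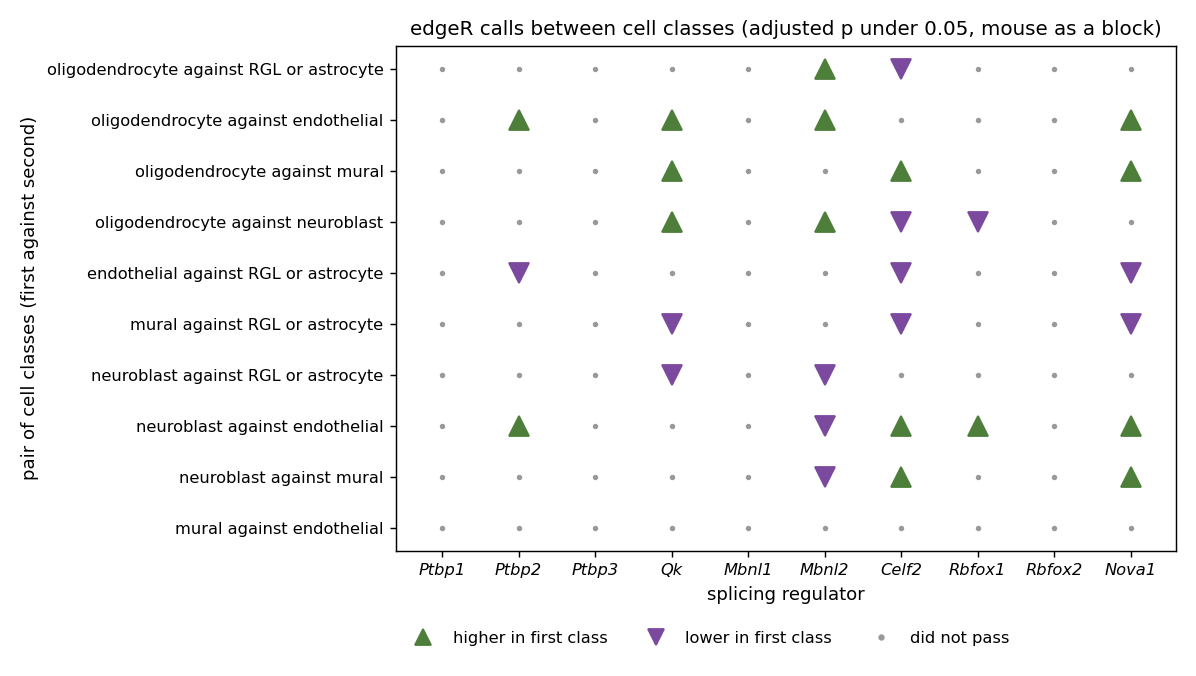
edgeR calls of each splicing regulator (x axis) in each of the 10 pairs of classes (y axis), with triangles pointing up where the first class was higher, down where it was lower, and dots where the test was not passed. Triangles mark 29 of 100 tests; Celf2, Mbnl2, Nova1 and Qk hold most of them and Ptbp1, Ptbp3, Mbnl1 and Rbfox2 hold none.

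Qk, which encodes the quaking protein of glia (ENSMUSG00000062078.15, chr17:10202601-10319854 of GRCm38, minus strand), was highest in the oligodendrocyte-like cells. The lowest, median and highest of 8 mice were 315, 599 and 852 CPM in oligodendrocyte-like cells, 161.0, 324 and 471 CPM in RGL or astrocyte-like cells and 0, 82.7 and 177 CPM in endothelial-like cells. In mural-like cells they were 0.51, 22.3 and 121 CPM. The 5 neuroblast-like sums held 26.9 and 0 CPM in antagomir mice 6 and 8, and 20.9, 0.469 and 0 CPM in scrambled mice 1, 3 and 5. The oligodendrocyte-like sums all lay above the endothelial-like, mural-like and neuroblast-like sums, while over all mice they overlapped with the RGL or astrocyte-like sums. Qk was higher in oligodendrocyte-like than in endothelial-like cells by 3.49 on the log2 scale (SE 1.00, adjusted p = 0.00964), than in mural-like cells by 4.78 (SE 1.06, adjusted p = 0.00114) and than in neuroblast-like cells by 7.25 (SE 1.52, adjusted p = 0.00121). It was lower in mural-like than in RGL or astrocyte-like cells, at -3.82 (SE 1.02, adjusted p = 0.00717), and lower in neuroblast-like than in RGL or astrocyte-like cells, at -6.29 (SE 1.45, adjusted p = 0.00346). Qk was higher in oligodendrocyte-like than in RGL or astrocyte-like cells of the same mouse in 8 of 8 mice. Within the pools that the well table names, the 2 classes did not overlap, at 764 to 852 CPM against 383 to 471 CPM in pool L6 and at 315 to 434 CPM against 161.0 to 264 CPM in pool L5. Over the RGL or astrocyte-like class, the edgeR difference of 0.96 did not pass (SE 0.90, 95% interval -0.86 to 2.78). When that pair was fitted without the other classes, an alternative chosen after seeing the data, the edgeR difference was 1.08 and passed (adjusted p = 0.000914). Qk was read in 300 of 301 oligodendrocyte-like cells, 142 of 168 RGL or astrocyte-like cells and 6 of 25 neuroblast-like cells. Wells with at least 200000 reads were also thinned to that depth, and shallower wells were left out. Qk was then read in 99.7% of 296 oligodendrocyte-like and 86.5% of 148 RGL or astrocyte-like cells.

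The muscleblind paralogs Mbnl1 and Mbnl2, which shift splicing towards the adult pattern in muscle and brain, differed in their class pattern. Mbnl2 (chr14:120275669-120431697, plus strand) had a lowest, median and highest level of 401, 448 and 586 CPM in oligodendrocyte-like cells, against 26.6, 60.0 and 110 CPM in RGL or astrocyte-like cells. The endothelial-like values were 26.7, 138 and 377 CPM and the mural-like values 87.0, 129.5 and 525 CPM. In neuroblast-like cells Mbnl2 had no read in 4 of 5 mice and 155 CPM in scrambled mouse 5. All 8 oligodendrocyte-like sums thus lay above all 8 RGL or astrocyte-like sums, and they overlapped only with a mural-like sum. Mbnl2 was higher in oligodendrocyte-like than in RGL or astrocyte-like cells by 2.95 on the log2 scale (SE 0.96, edgeR adjusted p = 0.0325), and by 3.26 with the pair fitted alone (adjusted p = 3.86e-05). Leaving out mouse 1, 2, 6 or 7 ended that call in the fit over 5 classes, with adjusted p of 0.0576, 0.0635, 0.0537 and 0.0556. The excess over endothelial-like cells was 2.57 (SE 0.96, edgeR adjusted p = 0.0478), in a pair where the median of all genes was 1.52. That call was kept only without mouse 5, with adjusted p = 0.062 to 0.108 without each other mouse. The fitted excess over neuroblast-like cells was 8.44 (SE 1.82, edgeR adjusted p = 0.00165). Mean levels were 469 CPM in oligodendrocyte-like cells (n = 8 mice) and 31.1 CPM in neuroblast-like cells (n = 5 mice). With 4 of 5 neuroblast-like sums at 0, no fitted Mbnl2 difference from that class gives a ratio of levels. All 313 neuroblast-like Mbnl2 reads came from mouse 5, and the fitted excess was 15.68 without it, where no read was left and the value is no bound. Over the other mice it was lowest, 6.92, without mouse 1, and it was 12.56 with the pair fitted alone. Mbnl2 was lower in neuroblast-like cells than in RGL or astrocyte-like (-5.50, SE 1.81, adjusted p = 0.0386), endothelial-like (-5.87, SE 1.79, adjusted p = 0.0227) and mural-like cells (-6.47, SE 1.78, adjusted p = 0.0126). The first of these 3 edgeR calls was kept only without mouse 5 (adjusted p = 0.0527 to 0.155 without each other mouse, and 0.0766 with the pair fitted alone). Leaving out mouse 1, 3, 6 or 8 ended the second (0.098, 0.101, 0.0821 and 0.0625 as adjusted p) and the third (0.0691, 0.0555, 0.0594 and 0.0613). Between oligodendrocyte-like and mural-like cells the Mbnl2 difference of 1.98 did not pass in edgeR (adjusted p = 0.138), and passed at 2.06 with the pair fitted alone (adjusted p = 0.00545).

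Mbnl1 was called in none of the 10 pairs by edgeR. Its lowest, median and highest levels were 60.2, 130 and 154 CPM in oligodendrocyte-like, 27.2, 86.7 and 167 CPM in RGL or astrocyte-like, 36.5, 151.5 and 514 CPM in endothelial-like and 8.34, 66.0 and 275 CPM in mural-like cells. Its neuroblast-like sums held 36.1 and 0 CPM in antagomir mice 6 and 8, and 87.2, 78.3 and 39.7 CPM in scrambled mice 1, 3 and 5. The classes overlapped throughout. The balance of the paralogs, log2(CPM + 1) of Mbnl2 minus that of Mbnl1, averaged 2.06 ± 0.474 (SD, n = 8 mice) in oligodendrocyte-like cells and -0.529 ± 0.939 in those of the RGL or astrocyte-like class. Every mouse had the higher balance in its oligodendrocyte-like cells, and the 2 ranges did not overlap. The mean difference was 2.59 (SD 0.96), higher in 8 of 8 mice, with an exact two-sided sign-flip p = 0.00781, the smallest that 8 mice can give, and 0.0469 after adjustment over 6 balance tests. Without any 1 of mice 1, 2, 3, 4, 6, 7 or 8 the difference was 2.41 to 2.73, with an adjusted exact p of 0.0938, the smallest that 7 mice can give over 6 tests unless another of them is as small, and within the pools it was 2.76 (L5) and 2.42 (L6). Single wells showed the same contrast as counts. In oligodendrocyte-like cells 203 of 301 wells held reads of both, 86 of Mbnl2 alone, 6 of Mbnl1 alone and 6 of neither. Of 168 RGL or astrocyte-like wells, 32 held both, 26 Mbnl2 alone, 42 Mbnl1 alone and 68 neither.

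**Figure D3:**
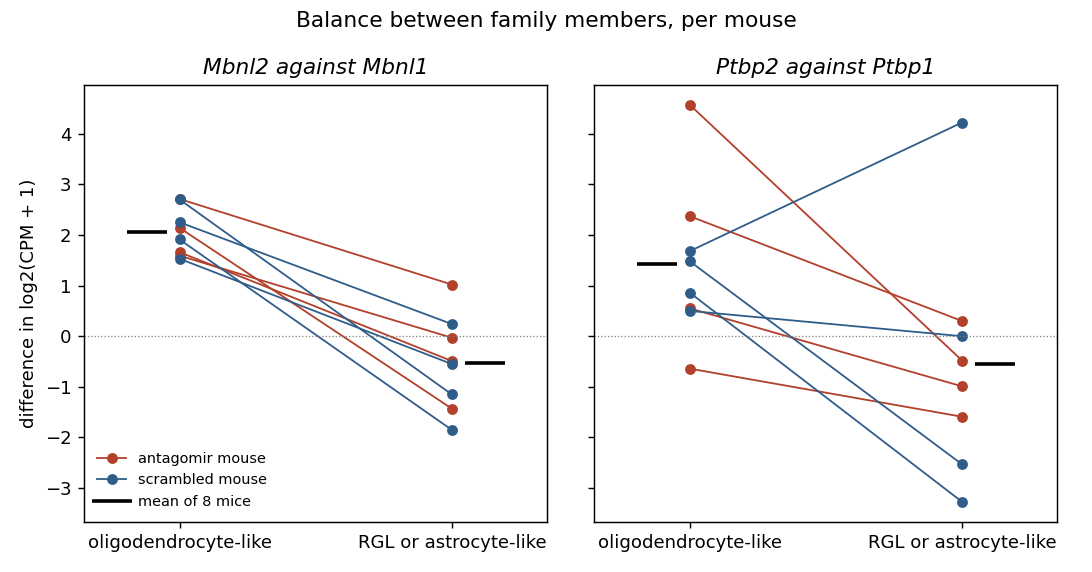
Balance of 2 paralog pairs per mouse, as log2(CPM + 1) of Mbnl2 minus Mbnl1 and of Ptbp2 minus Ptbp1, in the oligodendrocyte-like class (left) and the RGL or astrocyte-like class (right), with a line joining the 2 classes of a mouse and bars at the mean of 8 mice. The Mbnl balance is higher in oligodendrocyte-like cells in 8 of 8 mice, and the Ptbp balance in 7 of 8.

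Celf2, an activator and repressor of exons that often acts against muscleblind proteins, lies at chr2:6539694-7509563 on the minus strand and was highest in neuroblast-like cells. The 5 neuroblast-like sums held 207 and 627 CPM in antagomir mice 6 and 8, and 406, 283 and 502 CPM in scrambled mice 1, 3 and 5. The lowest, median and highest of 8 mice were 31.4, 72.4 and 141 CPM in RGL or astrocyte-like cells, 0.0566, 1.31 and 13.4 CPM in oligodendrocyte-like cells and 0, 0 and 27.4 CPM in endothelial-like cells. In mural-like cells Celf2 had 3 reads in all. All neuroblast-like sums lay above all others, and all RGL or astrocyte-like sums above all oligodendrocyte-like sums. The difference of neuroblast-like minus RGL or astrocyte-like cells, 0.99 (SE 1.43), did not pass in edgeR (adjusted p = 0.735, and 0.542 with the pair fitted alone). Celf2 was lower in oligodendrocyte-like than in RGL or astrocyte-like cells, at -5.14 (SE 1.45, edgeR adjusted p = 0.0126), and lower than in neuroblast-like cells, at -6.12 (SE 1.66, adjusted p = 0.0113). Endothelial-like cells were lower than RGL or astrocyte-like cells at -6.73 (SE 1.70, adjusted p = 0.0036), and neuroblast-like cells were higher than endothelial-like cells at 7.72 (SE 1.76, adjusted p = 0.00237). Against the 3 mural-like reads, the ratio was 1090 for RGL or astrocyte-like cells (counting interval 373 to 5280, edgeR adjusted p = 5.27e-05). For neuroblast-like cells it was 5840 (2000 to 28300, adjusted p = 3.95e-05). For oligodendrocyte-like cells it was 58.2 (19.9 to 282, adjusted p = 0.0113), a call lost without mouse 5 (adjusted p = 0.0503) and with the pair fitted alone (adjusted p = 0.0515). Celf2 was read in 22 of 25 neuroblast-like, 81 of 168 RGL or astrocyte-like and 18 of 301 oligodendrocyte-like cells, and Qk in 6, 142 and 300 of the same cells. Wells with reads of Celf2 but not Qk numbered 16 of 25, 4 of 168 and 0 of 301 in these classes. All 6 neuroblast-like wells with Qk reads also held Celf2 reads, and 77 RGL or astrocyte-like wells held both.

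The PTB paralogs were less evenly read. Ptbp2, the neuronal PTB protein (chr3:119718742-119784466, minus strand), held 194 and 303 CPM in the neuroblast-like sums of antagomir mice 6 and 8, and 174, 233 and 145 CPM in those of scrambled mice 1, 3 and 5. Its lowest, median and highest levels were 20.8, 36.2 and 45.7 CPM in oligodendrocyte-like, 2.71, 29.6 and 79.0 CPM in RGL or astrocyte-like, and 0, 0.446 and 19.4 CPM in endothelial-like cells. Every neuroblast-like sum lay above every oligodendrocyte-like, RGL or astrocyte-like and endothelial-like sum, and every oligodendrocyte-like sum above every endothelial-like sum. In mural-like cells the range was 0 to 298 CPM, set by 12 of 82 wells. Ptbp2 was lower in endothelial-like than in RGL or astrocyte-like cells, at -4.93 (SE 1.79, edgeR adjusted p = 0.0431), a call kept only without mouse 3 (adjusted p = 0.0521 to 0.15 without each other mouse, and 0.0665 with the pair fitted alone). It was higher in oligodendrocyte-like than in endothelial-like cells by 4.88 (SE 1.73, edgeR adjusted p = 0.0374), and leaving out mouse 1, 4, 5, 6 or 8 ended this call (adjusted p = 0.0814 to 0.0903). It was higher in neuroblast-like than in endothelial-like cells by 6.60 (SE 1.88, edgeR adjusted p = 0.0147), lost without mouse 1 (6.33, adjusted p = 0.0519) and with the pair fitted alone (adjusted p = 0.205). The other 3 pairs with neuroblast-like cells did not pass in edgeR. The difference was 1.66 over RGL or astrocyte-like cells (adjusted p = 0.545), 3.30 over mural-like cells (adjusted p = 0.302) and -1.72 as oligodendrocyte-like minus neuroblast-like cells (adjusted p = 0.52).

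Ptbp1, the PTB protein of most non-neuronal cells, and Ptbp3, its haematopoietic relative, were called in none of the 10 pairs by edgeR. Ptbp1 had a lowest, median and highest level of 1.12, 156 and 305 CPM in mural-like, 0.36, 66.7 and 335 CPM in endothelial-like, 0, 49.1 and 163 CPM in RGL or astrocyte-like and 0, 13.9 and 45.6 CPM in oligodendrocyte-like cells. Its neuroblast-like sums held 137 and 59.0 CPM in antagomir mice 6 and 8, and 2.05, 152 and 13.4 CPM in scrambled mice 1, 3 and 5. The oligodendrocyte-like class had the lowest mean, and all classes overlapped. Ptbp3 followed the same order of class means, from mural-like down to oligodendrocyte-like cells. Its lowest, median and highest levels were 5.71, 43.2 and 205 CPM in mural-like, 3.70, 47.3 and 244 CPM in endothelial-like, 0, 16.1 and 115 CPM in RGL or astrocyte-like and 5.88, 17.4 and 24.3 CPM in oligodendrocyte-like cells. In neuroblast-like cells Ptbp3 was read in 2 of 25 wells. The unnamed cluster of 36 cells was led by Dtl, Frzb, Tfap2c, Snhg4, Emx1, Cenpm, Gins2, Tnc, Eomes and 1500015O10Rik. Of 15 RGL or astrocyte markers, 13 were detected in at least 25% of its cells. It had Ptbp1 reads in 58.3% of its cells, at a mean over cells of 309 CPM. Ptbp1 averaged 115 CPM over endothelial-like, 117 CPM over mural-like and 81.9 CPM over neuroblast-like cells. The balance of Ptbp2 minus Ptbp1, as log2(CPM + 1), averaged 1.42 ± 1.56 (SD, n = 8) in oligodendrocyte-like cells and -0.542 ± 2.28 in the RGL or astrocyte-like class. It was higher in oligodendrocyte-like cells in 7 of 8 mice, by 1.96 (SD 2.45), and did not pass an exact sign-flip test (p = 0.0703, adjusted 0.211). With 10 in place of 1 as the pseudocount the difference was 1.41 and passed (adjusted exact p = 0.0469). It also passed without mouse 5 (2.61, adjusted exact p = 0.0469). Wells with both genes were few, at 16 of 301 oligodendrocyte-like, 10 of 168 RGL or astrocyte-like and 8 of 25 neuroblast-like cells.

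Of the Rbfox and Nova genes, Nova1 was near 0 in endothelial-like and mural-like cells. Nova1, which controls exons of synaptic transcripts, had a lowest, median and highest level of 4.78, 20.5 and 47.6 CPM in RGL or astrocyte-like cells and 1.33, 10.6 and 22.1 CPM in oligodendrocyte-like cells. The neuroblast-like sums held 0 and 19.7 CPM in antagomir mice 6 and 8, and 99.0, 7.97 and 4.47 CPM in scrambled mice 1, 3 and 5. Endothelial-like and mural-like cells gave 2 reads each, so ratios are given with counting intervals. Against endothelial-like cells the ratio was 268 for oligodendrocyte-like cells (interval 74.2 to 2210, edgeR adjusted p = 0.000474), 591 for RGL or astrocyte-like cells (164 to 4880, adjusted p = 0.000171) and 707 for neuroblast-like cells (196 to 5840, adjusted p = 0.00297). Against mural-like cells the ratios were 237 for oligodendrocyte-like (65.7 to 1960, adjusted p = 0.000399), 524 for RGL or astrocyte-like (145 to 4330, adjusted p = 0.000218) and 627 for neuroblast-like cells (173 to 5170, adjusted p = 0.00209). Mouse 1 held 242 of the 309 neuroblast-like reads, and without it the neuroblast-like ratios were 153 over endothelial-like and 146 over mural-like cells. The 2 neuroblast-like calls were lost with the pair fitted alone in edgeR (adjusted p = 0.584 and 0.585). The 5 oligodendrocyte precursor-like cells all held Nova1 reads, at a mean over cells of 86.8 CPM, and all held Qk reads, at 298 CPM. Of these cells, 4 came from antagomir mouse 2 and 1 from scrambled mouse 1, all in pool L5, so these are not values over mice.

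Rbfox1, a brain and muscle regulator, had 370 reads in neuroblast-like sums, 88 in RGL or astrocyte-like, 87 in mural-like, 3 in oligodendrocyte-like and none in endothelial-like cells. Of the 87 mural-like reads, 84 came from scrambled mouse 1. Its neuroblast-like sums held 54.9 and 28.3 CPM in antagomir mice 6 and 8, and 0, 95.2 and 0 CPM in scrambled mice 1, 3 and 5. Rbfox1 was at least 565-fold higher in neuroblast-like than in endothelial-like cells, taking a floor of 3 reads over the group (edgeR adjusted p = 0.00506). Against the 3 oligodendrocyte-like reads the neuroblast-like level had a ratio of 2760 (interval 945 to 13400, edgeR adjusted p = 0.00464). Without mouse 3, which held 203 of the 370 reads, these became at least 282-fold and a ratio of 1310. Both calls were lost with the pair fitted alone (adjusted p = 0.455 and 0.2), and the neuroblast-like reads came from 3 of 20 cells. Neuroblast-like cells did not pass in edgeR against RGL or astrocyte-like cells (7.67, adjusted p = 0.0517) or against mural-like cells (6.31, adjusted p = 0.318). Rbfox2, which is read in many tissues, was called in no pair by edgeR. Its neuroblast-like sums held 282 and 0 CPM in antagomir mice 6 and 8, and 80.2, 0 and 165 CPM in scrambled mice 1, 3 and 5, a range that covers that of the other 4 classes.

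Some edgeR differences ran against the order of mean levels over the 5 classes, and none of these passed. Neuroblast-like minus RGL or astrocyte-like cells had -0.86 for Ptbp1, -0.97 for Ptbp3 and -0.99 for Nova1. Oligodendrocyte-like cells had 1.59 over mural-like for Ptbp2, -0.05 over RGL or astrocyte-like for Ptbp2 and 1.6 over endothelial-like for Celf2. Mural-like cells had -0.25 over endothelial-like for Ptbp3 and -0.52 over RGL or astrocyte-like for Rbfox2. In that order, 5 of 40 neighbouring steps passed edgeR. These were Celf2 from RGL or astrocyte-like to endothelial-like, Celf2 and Nova1 from oligodendrocyte-like to mural-like, Ptbp2 from RGL or astrocyte-like to endothelial-like, and Mbnl2 from RGL or astrocyte-like to neuroblast-like cells.

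The genes whose log2(CPM + 1) followed a member most closely over the 37 sums were taken from 7678 genes (7679 for Rbfox1 and Nova1) averaging at least 20 CPM. These correlations describe sums that share mice and classes. Celf2 was closest to Nnat (Pearson r = 0.909), Apba2 (0.907) and Disp3 (0.904). Nova1 was closest to Amer2 (0.888), Soga3 and Mlxip, and Qk to Dbi (0.886), Car2 (0.863) and BC029214 (0.813). Mbnl2 was closest to Tmbim1 (0.818), Pttg1 and Fam174a, and Ptbp2 to Vps51 (0.817), Setd7 and Akap6. Mbnl1 reached 0.718 with Ubr4, followed by Sept2 and Sugt1, and Rbfox1 0.708 with Bcl11a, followed by Sox11 and Cldn3. Rbfox2 reached 0.629 with Stk38, followed by Parva and Ccar2. Ptbp3 reached 0.628 with Fam118a, followed by Msn and Arpc1b. Ptbp1 had the lowest leading value, 0.542 with Il17rc, followed by Akap13 and Ppp1r11.

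Other genes of the splicing machinery were read from 6 lists. Paralogs of the members were called in 36 of 120 pair tests (30.0%) and other tissue-biased regulators in 35 of 200 (17.5%), against 16.6% of all genes. SR proteins, the serine- and arginine-rich activators of exons, were called in 5 of 150 tests (3.33%), core spliceosome genes in 4 of 240 (1.67%) and hnRNPs in 1 of 210 (0.476%). DESeq2 called 16 of the SR, 19 of the core spliceosome and 37 of the hnRNP tests. It also called more of all genes than edgeR in every pair. The 16.6% is from edgeR and is no background for these DESeq2 counts. The SR calls were Son, lower in oligodendrocyte-like (-1.30), endothelial-like (-1.78) and neuroblast-like cells (-1.56) than in RGL or astrocyte-like cells and higher in mural-like than in endothelial-like cells (1.05), and Srsf5, lower in neuroblast-like than in RGL or astrocyte-like cells (-1.77). The hnRNP call was Hnrnpa1, higher in neuroblast-like than in RGL or astrocyte-like cells by 3.26. The core calls were Eftud2, a U5 snRNP GTPase, in the 3 pairs of mural-like cells with RGL or astrocyte-like (3.21), endothelial-like (2.58) and, as oligodendrocyte-like minus mural-like, oligodendrocyte-like cells (-3.13), and Prpf3 in oligodendrocyte-like minus endothelial-like cells (9.39).

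With RGL or astrocyte-like cells as the comparison, the neuronal ELAV paralog Elavl3 was higher in oligodendrocyte-like cells (5.88 on the log2 scale, edgeR). The Musashi genes Msi1 (-9.58) and Msi2 (-5.62), known from neural stem cells, were lower. Of the tissue-biased regulators Rbpms was higher (5.43), and Srrm4 (-8.14), Raver2 (-10.24), a partner of PTB proteins, and Khdrbs3 (-8.03) were lower. Neuroblast-like minus RGL or astrocyte-like cells gave higher Rbfox3 (12.36), Elavl3 (4.95), Srrm3 (9.47) and Khdrbs2 (11.88) and lower Khdrbs3 (-10.88) and Rbpms2 (-10.79). Rbfox3 is also a mature neuron marker. Neuroblast-like cells had 6 of 12 paralogs higher than endothelial-like (14.3% of all genes called) and 8 of 12 higher than mural-like cells (12.8% of all genes called), and none lower, Elavl3, Rbfox3 and Celf3 among them. Rbpms, a regulator of smooth muscle splicing, was higher in mural-like (14.83) and endothelial-like (13.33) than in RGL or astrocyte-like cells. Of 17 transcripts described as bound or spliced by the members, 8 were higher and 1 lower in oligodendrocyte-like than in RGL or astrocyte-like cells, with 15.5% of all genes called. They included Mag (14.39), Mbp (11.95) and App (5.63), and the lower one was Dlg4 (-8.67). Some of the 8, Mag and Mbp among them, were also markers used to name the oligodendrocyte-like clusters, so neither their direction nor the count of 8 is a result.

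The question of the treatment was whether these genes differ after the antagomir. None passed in the sums over all kept wells, where 10 of 10 members were tested and edgeR called 0 of them (0 at an unadjusted p under 0.05, 0 by DESeq2), as it called 0% of 15447 genes. In oligodendrocyte-like cells edgeR called 0 of 9 members tested and 0% of 10778 genes. The RGL or astrocyte-like class gave 0 of 9 and 0% of 10071 genes. Members at an unadjusted p under 0.05 numbered 0 in both classes, and DESeq2 called 0. Over all genes 280, 212 and 158 had an unadjusted p under 0.05, and DESeq2 called 134, 94 and 125 genes in these 3 comparisons. Rbfox1 did not pass the filter on low counts in either class. The median member difference was -0.11 in all cells, 0.07 in the oligodendrocyte-like class and -0.37 in the RGL or astrocyte-like class, where all genes had 0.00, -0.01 and 0.01. In sums over all wells, fewer cells of a class and less RNA per cell cannot be told apart. Oligodendrocyte-like cells made up 40.1% ± 10.4 of antagomir and 44.2% ± 7.49 of scrambled wells (SD, n = 4 mice each).

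Ptbp2, with a match close to its stop codon, held 42.2, 42.3, 30.8 and 47.1 CPM in all cells of antagomir mice 2, 4, 6 and 8, against 33.7, 42.5, 31.9 and 46.1 CPM in scrambled mice 1, 3, 5 and 7. The 2 groups covered nearly the same range. The log2 difference was 0.05 (SE 0.28, 95% interval -0.57 to 0.68, edgeR adjusted p = 1), against 0.07 in oligodendrocyte-like cells (interval -0.78 to 0.92) and 0.32 for the RGL or astrocyte-like class (SE 1.06). The other 3 genes with a match also did not pass. Ptbp3 differed by -0.36 (interval -1.28 to 0.57), Celf2 by 0.01 (-0.75 to 0.77) and Nova1 by 0.40 (-0.79 to 1.59) in all cells. In oligodendrocyte-like cells Nova1 held 11.8, 20.8, 4.70 and 22.1 CPM in antagomir mice 2, 4, 6 and 8, against 1.33, 3.94, 9.76 and 11.5 CPM in scrambled mice 1, 3, 5 and 7. The highest 3 values were from antagomir mice, and the groups overlapped. That difference was 1.15 (SE 0.92, interval -0.90 to 3.19, edgeR adjusted p = 1).

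Qk, the member with the most reads, held 315, 847, 434 and 764 CPM in oligodendrocyte-like cells of antagomir mice 2, 4, 6 and 8, against 383, 852, 414 and 800 CPM in scrambled mice 1, 3, 5 and 7. In both groups mice 3, 4, 7 and 8, which belong to pool L6 of the well table, lay above mice 1, 2, 5 and 6, which belong to pool L5, and the treatment groups overlapped. The treatment difference was -0.06 (SE 0.34, 95% interval -0.82 to 0.70), and within the pools it was -0.13 (L5) and -0.02 (L6). Mbnl2 in the same cells held 440.4, 454, 401 and 488 CPM in antagomir mice, against 517, 423, 586 and 443 CPM in scrambled mice, with a difference of -0.17 (SE 0.18, interval -0.56 to 0.22). It had the narrowest interval of the members. In RGL or astrocyte-like cells Mbnl1 held 73.5, 99.9, 27.2 and 54.5 CPM in antagomir mice, against 114, 161, 53.9 and 167 CPM in scrambled mice. The 3 highest values were from scrambled mice, and the groups overlapped. The difference of -0.99 (SE 0.53, interval -2.15 to 0.17) had the smallest edgeR p of any member in the 3 comparisons, and an adjusted p of 1. Rbfox2 in all cells held 6.88, 1.67, 17.3 and 9.22 CPM in antagomir mice, against 15.9, 30.4, 23.9 and 7.56 CPM in scrambled mice, a difference of -1.17 (SE 0.73, interval -2.79 to 0.45, edgeR adjusted p = 1).

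**Figure D4:**
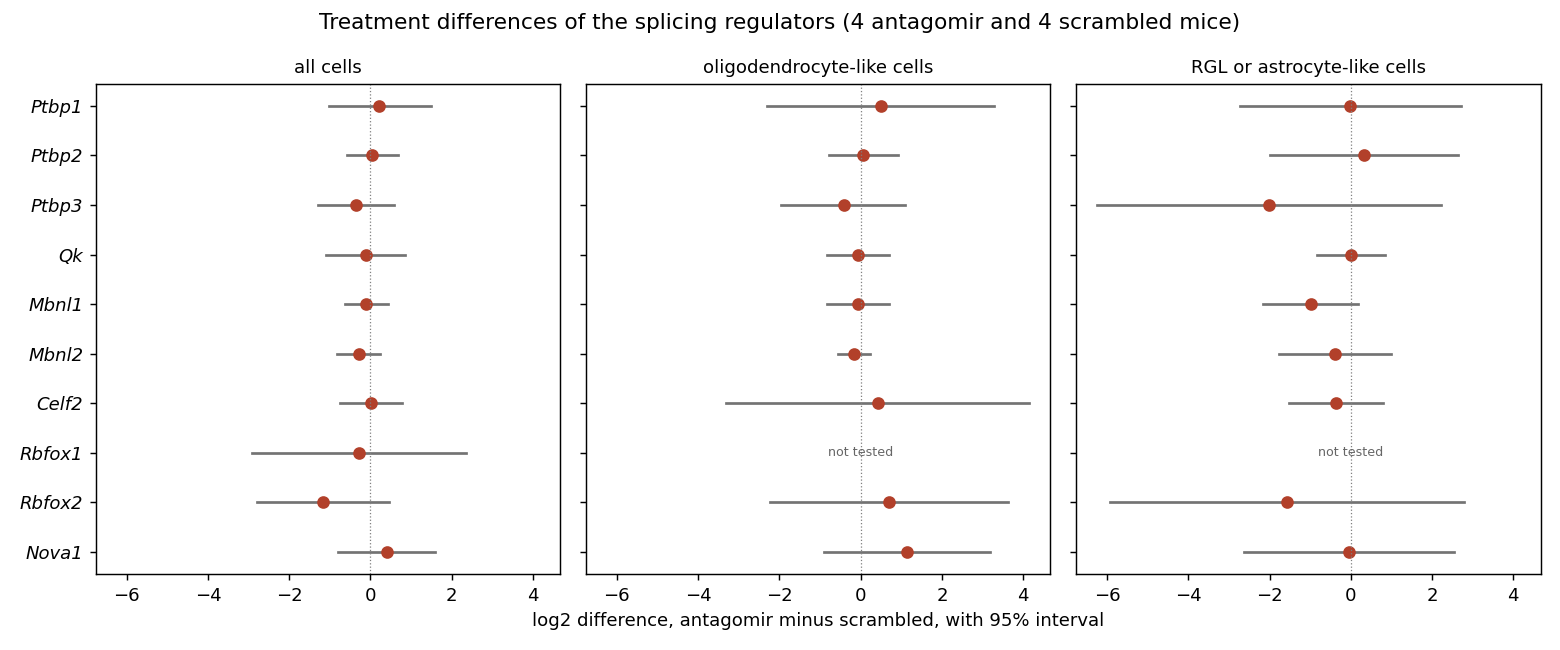
Antagomir minus scrambled log2 difference of each splicing regulator, with a 95% interval back-calculated from the edgeR F statistic. Panels show all kept wells (left), the oligodendrocyte-like class (middle) and the RGL or astrocyte-like class (right). Every interval crosses 0; that of Mbnl2 in oligodendrocyte-like cells, -0.56 to 0.22, is the narrowest.

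The difference between the treatment differences of the 2 classes was tested as an interaction, and edgeR called 0 of 9 members and 0% of 15550 genes (0 members and 293 genes at an unadjusted p under 0.05, with no DESeq2 fit of it). No treatment difference of the paralog balances passed. The smallest exact p that 4 mice against 4 can give is 0.0286, or 0.171 after adjustment over the 6 tests unless others are as small. The Mbnl2 minus Mbnl1 balance averaged 2.03 ± 0.52 in antagomir and 2.10 ± 0.50 in scrambled mice in oligodendrocyte-like cells (SD, n = 4 each, exact permutation p = 0.886). For RGL or astrocyte-like cells it averaged -0.233 ± 1.02 in antagomir and -0.825 ± 0.888 in scrambled mice (exact permutation p = 0.429). For Ptbp2 minus Ptbp1 the averages in oligodendrocyte-like cells were 1.71 ± 2.27 in antagomir and 1.13 ± 0.551 in scrambled mice (exact permutation p = 0.686). In the RGL or astrocyte-like class they were -0.689 ± 0.804 in antagomir and -0.395 ± 3.38 in scrambled mice (exact permutation p = 0.914). Of the wider lists 107 genes were tested in all cells, 89 in the oligodendrocyte-like and 95 in the RGL or astrocyte-like class, and edgeR called 0 in each (0 at an unadjusted p under 0.05). DESeq2 called 1 of them, in all cells, Hnrnpl, a repressor of exons, with a difference of -0.52 (DESeq2 adjusted p = 0.0277), against -0.53 in edgeR, which did not call it. The list gene with the smallest edgeR p in all cells was Elavl4, with a difference of 1.04, followed by Clta at 0.41, both with an adjusted p of 1.

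Qk also differed between the 2 pools, L5 and L6, that the Project column of the well table names. In oligodendrocyte-like cells the 4 mice of pool L6 held 764 to 852 CPM (816 ± 41.7, SD), and the 4 mice of pool L5 held 315 to 434 CPM (387 ± 52.0, SD). The pools did not overlap, and each held 2 mice of each treatment. The difference of L6 minus L5 was 0.99 on the log2 scale with treatment in the model (SE 0.13, 95% interval 0.69 to 1.29, edgeR adjusted p = 0.0247). It was the single member called of 9 tested, where 0.327% of 11626 genes were called. The test was added after seeing the data. Leaving out any 1 of the 8 mice kept the difference between 0.89 and 1.07 and ended the call. The adjusted p was 0.15, 0.109, 0.114, 0.0989, 0.0893, 0.0568, 0.115 and 0.0905 without mouse 1 to 8 in that order. In RGL or astrocyte-like cells Qk averaged 425 ± 35.9 CPM in pool L6 and 220.1 ± 52.2 CPM in pool L5 (SD, n = 4 mice each), again without overlap. That difference of 0.92 (SE 0.27) did not pass (edgeR adjusted p = 0.835). There edgeR called 0 of 9 members (1 at an unadjusted p under 0.05, Qk, and 0 by DESeq2) and 0.0269% of 11149 genes. In all kept wells Qk averaged 568 ± 46.8 CPM in L6 and 236.5 ± 23.6 CPM in L5 mice (SD, n = 4 each). The difference of 1.28 (SE 0.16, edgeR adjusted p = 0.063) missed the threshold, where 0 of 10 members and 0.0419% of 16693 genes were called, with Qk the single member at an unadjusted p under 0.05. It passed without the filter on low counts (adjusted p = 1.56e-05) and with DESeq2 (adjusted p = 8.29e-15).

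**Figure D5:**
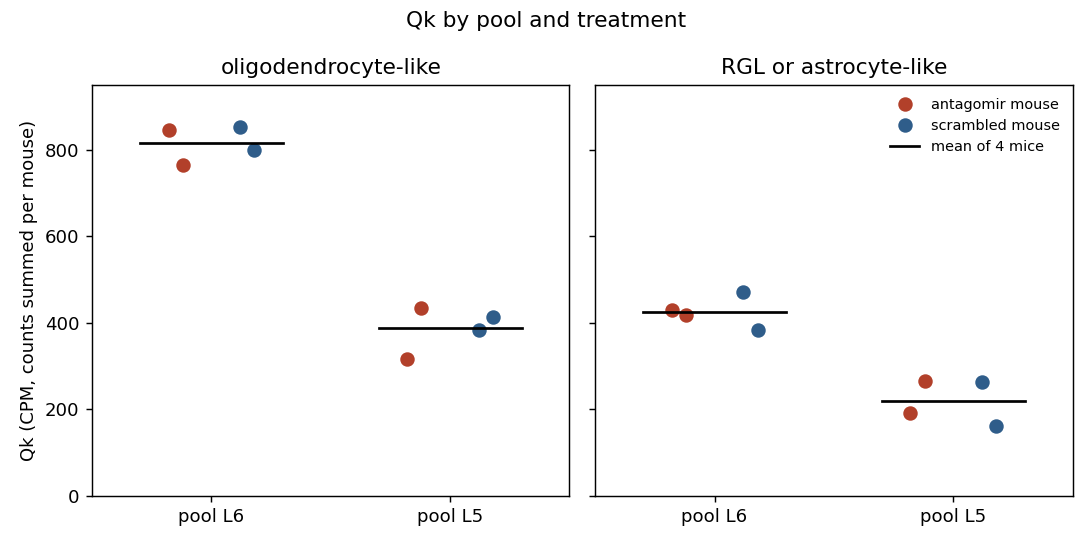
Qk CPM per mouse in pool L6 (left) and pool L5 (right), with a panel for the oligodendrocyte-like and one for the RGL or astrocyte-like class, with antagomir and scrambled mice in different colours and bars at the mean of 4 mice. In oligodendrocyte-like cells the L6 mice lie between 764 and 852 CPM and the L5 mice between 315 and 434 CPM.

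The pools also did not overlap for Ptbp2 and Ptbp3 in oligodendrocyte-like cells. The share of all genes without overlap between the pools was not counted, so the lack of overlap, also that of Qk, only describes ranges. In that edgeR comparison 1241 of 11626 genes had an unadjusted p under 0.05. Ptbp2 held 38.8 to 45.7 CPM in L6 and 20.8 to 33.6 CPM in L5 mice, with an edgeR difference of 0.58 (adjusted p = 0.623). Ptbp3 held 17.9 to 24.3 CPM in L6 and 5.88 to 16.9 CPM in L5 mice, a difference of 1.18 that edgeR did not call (adjusted p = 0.55) and DESeq2 did.

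The pools differed in other measures, whose part in the Qk difference was not tested. The median share of mitochondrial reads was 3.76% in L6 and 1.13% in L5 oligodendrocyte-like wells, and 5.92% in L6 and 1.71% in L5 RGL or astrocyte-like wells. The median oligodendrocyte-like well held 965801 reads in L6 and 756503 in L5, while the RGL or astrocyte-like wells held 490630 in L6 and 563779 in L5. Oligodendrocyte markers summed to 91517 to 104085 CPM in L6 and to 88969 to 102778 CPM in L5 oligodendrocyte-like cells. The 3 oligodendrocyte-like clusters drew 77.3%, 36.1% and 10.5% of their cells from L6, and Qk was higher in L6 within each. Means over cells were 818 CPM (L6) and 449 CPM (L5) in the first, 830.3 CPM (L6) and 407 CPM (L5) in the second, and 816 CPM (L6) and 380.5 CPM (L5) in the third, which held 4 L6 cells. Of 16 described target transcripts tested in oligodendrocyte-like cells, 1 passed, the myelin gene Mag, lower in L6 by 0.85 (difference -0.85, SE 0.09, edgeR adjusted p = 0.0121).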

How the data were processed

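The deposited table held the authors' whole-number read counts per gene and well, made with STAR 2.5.2 and featureCounts 1.5.1 on mm10, per the submitters' processing notes, which also list FastQC and Seurat 2.3.1. Per the labels' protocols, nestin-GFP-positive cells were processed with Smart-seq2, which has no molecular identifiers, so amplified copies cannot be told from separate molecules. The counting intervals of ratios, and the bounds given as at least a fold, treat reads as independent. They cover neither amplification nor the spread between cells and mice. The edgeR intervals are of another kind and rest on the spread between sums. Each SE was back-calculated as the absolute difference divided by the square root of the F statistic, and the interval was built from it. Such an SE can be unreliable where a difference is near 0 or a class has sums without reads. Nova1 in oligodendrocyte-like minus neuroblast-like cells had a difference of -0.01 with an SE of 0.20. A deposited table of wells gave treatment, mouse and pool. It does not tie mice to the 2 samples that the labels list for each treatment, and the mouse was the replicate. p-values measure the spread between these mice. The counting is not stated to use strand, so reads of overlapping antisense genes cannot be told apart, and paralogs can share reads.

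Wells with 500 to 6000 detected genes were kept. Clusters were made with scanpy 1.11.5 and leidenalg 0.10.2 (2000 variable genes without splicing regulators, 20 principal components, 15 neighbours, resolution 1, 10000 counts per well) and named from markers, of which 3 or more had to be detected. Of 716 kept wells, 676 fell into the same class when marker shares alone were used. Levels were CPM of reads summed per mouse and class, where a sum needed 3 wells. Tests used edgeR 4.0.16 (R 4.3.3; TMM, filterByExpr, quasi-likelihood) on the counts as deposited, with Benjamini-Hochberg adjustment over all genes tested and a threshold of 0.05. DESeq2 1.42.0, no filter, the pools, a replicate block and each mouse left out were alternatives. The edgeR fits of treatment and of oligodendrocyte-like minus RGL or astrocyte-like cells were tried on simulated counts. Changes were set only in genes read in most of the compared sums. That trial does not cover genes at or near 0 in a class, nor the other pairs of classes. The 4 pairs of an antagomir and a scrambled mouse that shared sort day and pool in the well table were checked by the correlation of their deviations from the group means, which ran from 0.00 to 0.15 in 3 comparisons. The main fits of treatment have no block for them. Shares of wells with a read were repeated with wells thinned to 200000 reads. The 46 kept wells with fewer reads were left out of these shares. All 10 members are named; for each, the 3 genes with the most similar pattern are named, and from the wider lists up to 4 called genes per list, comparison and direction with the smallest p, or up to 2 where none passed. The members and lists were chosen with earlier results of these data known.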

Additional observations from a re-analysis of the deposited data

Results flagged for a closer look

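A single mouse lay far from the others of its group for 22 of 108 combinations of gene, cell class and group of mice. The rule marks about 1 in 20 groups by chance only where values are normally distributed, which was not tested for these CPM values. A gene read in 1 mouse only is marked by construction. The group of all mice also contains the antagomir and scrambled groups. No chance rate can therefore be set against the 22 combinations. No cause was tested for any of them. In most of them the reads came from few wells. Celf2 stood at 49.4 CPM in all wells of scrambled mouse 5, where the next scrambled mouse had 34.7 CPM, and at 11.47 CPM in its oligodendrocyte-like cells (3 wells).

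Several marked values were single wells of a gene that is otherwise at or near 0. Rbfox1 stood at 0.07321 CPM in oligodendrocyte-like cells of mouse 7, among all mice and among scrambled mice. In RGL or astrocyte-like cells it stood at 5.008 CPM in mouse 7, again in both groupings, and at 0.04435 CPM in antagomir mouse 4. It stood at 11.25 CPM in mural-like cells of mouse 1. Nova1 stood at 0.3602 CPM in endothelial-like cells of mouse 6 and at 0.4388 CPM in mural-like cells of mouse 8, and Celf2 at 27.42 CPM in endothelial-like cells of mouse 8.

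The other marked values were well above 0. Ptbp3 stood at 115.2 CPM in RGL or astrocyte-like cells of mouse 7 (5 wells), at 243.7 CPM in endothelial-like cells of mouse 8 (2 wells) and at 178.8 CPM in neuroblast-like cells of mouse 6 (1 well). Rbfox2 stood at 20.46 CPM in RGL or astrocyte-like cells of antagomir mouse 6. Ptbp1 stood at 335.0 CPM in endothelial-like cells of mouse 1 (8 wells). Mbnl1 stood at 513.8 CPM in endothelial-like cells of mouse 4 and at 275.2 CPM in mural-like cells of mouse 7. Mbnl2 stood at 376.8 CPM in endothelial-like cells of mouse 7 (1 well), at 525.3 CPM in mural-like cells of mouse 8 and at 155.3 CPM in neuroblast-like cells of mouse 5. Nova1 stood at 99.04 CPM in neuroblast-like cells of mouse 1 (3 wells).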

How the results depend on the processing

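The treatment calls did not depend on the alternatives run with edgeR, in which 0 members and 0 genes stayed the count. Directions of uncalled differences did: 68 of 402 alternative values of the 28 treatment results changed sign, none past the threshold, and the cause was not tested. DESeq2 called 134 genes for treatment in all cells, 94 in the oligodendrocyte-like and 125 in the RGL or astrocyte-like class, none of them members. In all cells the signs changed in pool L5 alone for Nova1 (-0.13), Rbfox1 (1.27), Celf2 (-0.41) and Ptbp3 (0.10), in pool L6 alone for Mbnl1 (0.09) and with all wells for Celf2 (-0.00). In oligodendrocyte-like cells they changed in L6 alone for Mbnl2 (0.14) and Mbnl1 (0.53) and in L5 alone for Ptbp2 (-0.11). In RGL or astrocyte-like cells they changed with no filter for Ptbp1 (0.00) and Qk (0.01), with the pool as a covariate for Nova1 (0.60) and Qk (0.02), and in L5 alone for Ptbp1 (1.23), Nova1 (1.89), Qk (0.07), Celf2 (0.01), Ptbp2 (-0.24) and Ptbp3 (0.68).

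A replicate block, which joins the antagomir and the scrambled mouse of the same sort day and pool, changed the sign for Celf2 in all cells (-0.02), for Ptbp1 in oligodendrocyte-like cells (-0.68) and for Ptbp1 (0.94), Nova1 (0.56) and Qk (0.03) in RGL or astrocyte-like cells. It changed no call. With each mouse left out in turn, all-cell differences ran from -0.06 to 0.85 for Ptbp1, -0.06 to 0.18 for Ptbp2, -0.53 to 0.08 for Ptbp3, -0.45 to 0.10 for Qk, -0.21 to 0.07 for Mbnl1, -0.19 to 0.20 for Celf2 and -0.79 to 0.40 for Rbfox1. In oligodendrocyte-like cells they ran from -0.26 to 0.92 for Ptbp1, -0.08 to 0.23 for Ptbp2, -0.27 to 0.14 for Qk, -0.26 to 0.15 for Mbnl1, -0.87 to 2.39 for Celf2 and -0.08 to 1.45 for Rbfox2. In RGL or astrocyte-like cells they ran from -0.61 to 0.91 for Ptbp1, -0.07 to 1.59 for Ptbp2, -0.21 to 0.21 for Qk and -0.36 to 0.59 for Nova1.

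Class pairs kept 393 of 491 alternative calls of the 29 called member results, and the other 98 missed the threshold with the same sign. Without the mouse block 5 of these calls were lost: Ptbp2 in endothelial-like minus RGL or astrocyte-like (-3.02) and oligodendrocyte-like minus endothelial-like cells (3.18), and Mbnl2 in neuroblast-like minus RGL or astrocyte-like (-2.02), neuroblast-like minus endothelial-like (-2.66) and oligodendrocyte-like minus endothelial-like cells (2.40). Of 1193 alternative values of the 71 uncalled results, 75 changed sign and 40 passed. Genes called by DESeq2, in pool L5 alone and in pool L6 alone (4 mice each) were as follows. Oligodendrocyte-like minus RGL or astrocyte-like cells gave 4727, 609 and 482, endothelial-like minus RGL or astrocyte-like 7399, 1020.0 and 1294, and mural-like minus RGL or astrocyte-like 6349, 734 and 855. Oligodendrocyte-like minus endothelial-like gave 7256, 1115 and 1407, and minus mural-like 6554, 926 and 1092. Neuroblast-like minus RGL or astrocyte-like gave 6162, 504 and 164, with 3194 where sums of 1 cell were admitted, 829 with the pair alone and 1302 to 1854 without each mouse. Oligodendrocyte-like minus neuroblast-like gave 6107, 571 and 208, with 3311 where sums of 1 cell were admitted and 591 with the pair alone. Mural-like minus endothelial-like gave 5243, 339 and 413, neuroblast-like minus endothelial-like 6145, 851 and 383, and neuroblast-like minus mural-like 6032, 725 and 320.0. Without the mouse block, a replicate block in these pairs, the last 3 gave 2344, 3314 and 3033, and 804, 958 and 770.0 with the pair alone.

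Members called were as follows. Oligodendrocyte-like minus RGL or astrocyte-like cells had 0 in L5, 0 in L6 and 1 to 2 without each mouse. Endothelial-like minus RGL or astrocyte-like had 5 by DESeq2, 0 in L5 and 1 in L6, and mural-like minus RGL or astrocyte-like 1 in L6. Neuroblast-like minus RGL or astrocyte-like had 1 without the replicate block, 0 in L5, 1 with the pair alone and 1 to 2 without each mouse. Oligodendrocyte-like minus endothelial-like had 2 with no filter, 2 without the block, 0 in L5, 2 in L6 and 2 to 3 without each mouse. Oligodendrocyte-like minus mural-like had 5 by DESeq2 and 1 in each pool, and minus neuroblast-like 1 in L5 and 2 in L6. Mural-like minus endothelial-like had 3 by DESeq2 and 2 without the block. Neuroblast-like minus endothelial-like had 1 in L5, 2 in L6, 2 with the pair alone and 3 to 7 without each mouse, and minus mural-like 1 in L5.

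The pool comparison gave 1602 genes by DESeq2 in all cells, 1047 in the oligodendrocyte-like and 459 in the RGL or astrocyte-like class, and 527, 263 and 30 with no filter. Without each mouse it gave 0 to 3 genes in all cells and 5 to 13 in oligodendrocyte-like cells, with 0 members. Members called were 1 in all cells with no filter, 1 with DESeq2, and 2 in oligodendrocyte-like cells with DESeq2. The Ptbp2 minus Ptbp1 balance between classes was 1.41 with a pseudocount of 10 and 1.52 to 2.61 without each mouse. The Mbnl2 minus Mbnl1 balance was 2.76 in L5, 2.42 in L6 and 2.41 to 2.73 without each mouse, and within a pool no exact test of 4 mice can pass. The treatment difference of the Ptbp balance in RGL or astrocyte-like cells was 0.06 with a pseudocount of 10, 2.56 in L6 and -1.25 to 1.25 without each mouse, and in oligodendrocyte-like cells -0.37 to 1.37. That of the Mbnl balance in oligodendrocyte-like cells was 0.35 in L5 and -0.30 to 0.13 without each mouse. The depth of the neuroblast-like results is that of 5 sums of 3 to 5 cells each.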
